A study of Mus musculus with 4 samples.

Results

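Immediate early genes are switched on within minutes of a growth factor or stress signal, without new protein synthesis. The ERK, JNK and p38 mitogen-activated protein kinases (MAPKs) phosphorylate factors such as Elk1 and Jun that sit at their promoters, and the products include the AP-1 subunits (Fos and Jun proteins, which pair through leucine zippers), the Egr and Klf zinc finger factors and the Ier proteins. Among the induced products are also the brakes of the pathway: dual-specificity phosphatases (Dusp), which strip phosphate from MAPKs, Sprouty (Spry) and Spred proteins, which act between receptors and Ras or Raf, and Zfp36 proteins, which bind AU-rich sequences and shorten the life of immediate early mRNAs. In the monocyte and macrophage lineage these genes respond to CSF-1 and to microbial products, and Egr, Maf and Klf factors take part in monocytic maturation.

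The genes described here were chosen by symbol, with earlier results of these data known. They are every Fos, Jun, Egr1 to Egr4, Ier2, Ier3, Ier5, Ier5l, Dusp, Spry, Spred and Klf gene of the deposited table. Atf3, Zfp36, Zfp36l1 and Zfp36l2 were added, and Klf1 and Klf4 were left out. The choice gave 58 genes (61 RefSeq transcripts) of 16545 genes (18061 transcripts). Genes that the rule names but the table does not list, such as Jund, were not analysed here. For Dusp13, Dusp15 and Spred1, which have more than 1 transcript, the one with the highest mean stands for the gene.

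The study sequenced mRNA in mouse leukaemia cells driven by MLL-AF9, a fusion of the histone methyltransferase MLL with AF9. The cells were taken from bone marrow of C57BL/6 mice and grown in liquid culture. By the labels, both groups carried the genotype Ring1a-/-;Ring1bf/f Cdkn2a-/-: they lacked Ring1a, one of a pair of catalytic Polycomb PRC1 subunits, and Cdkn2a, a tumour suppressor locus, and had floxed alleles of Ring1b, the other PRC1 subunit. One group of 2 samples received 4-hydroxytamoxifen (OHT), which activates Cre recombinases fused to a modified oestrogen receptor, and the other group of 2 received its solvent, ethanol (EtOH), both for 72 h. The labels used here do not name the Cre line, and OHT-treated cells without floxed alleles were not analysed here, so OHT itself and the loss of Ring1b cannot be told apart. Nor do they say whether cultures or mice were separate, so the spread behind each p-value is that among these 4 libraries and may be technical.

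Levels are given as normalised reads, the whole reads of a library divided by its size factor. The 4 libraries were recovered from the deposited group means and are named EtOH A, EtOH B, OHT A and OHT B, letters that do not link to the labels' replicate numbers. They held 3841243 to 6255320 reads, with the fewest in EtOH B. Rnf2, which encodes Ring1b, stood at 687 and 583 normalised reads with EtOH and 716 and 797 with OHT, but these values cover the whole transcript and cannot show whether the floxed exons were lost. Of the myeloid markers all 10 of 10 were measured, with summed levels of 9199 and 8737 with EtOH and 11809 and 13502 with OHT. T cell markers were at or near 0, with Cd3g alone listed and at most 0.829 normalised reads. The measured B cell, erythroid, stromal and endothelial markers summed to at most 189 normalised reads a list in any library. Of these, Epor (erythroid) and Col1a1 (stroma) rose in the authors' deposited table. The limma-voom log2 fold change of Col1a1 was 2.72 with all libraries and 2.59 without OHT A, where its call was lost. Macrophage markers were higher with OHT. In the authors' deposited table, Marco, Msr1, C1qa, C1qb and C1qc rose, 5 of the 10 measured, against 3.62% of all transcripts. All 9 that could be fitted were higher in both OHT libraries than in either EtOH library, against 27.5% of fitted transcripts. The macrophage markers summed to 3325 and 1285 normalised reads with EtOH and 6232 and 6899 with OHT. Their part in the differences described below was not tested, and in these bulk samples fewer cells of a type and less RNA per cell cannot be told apart.

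With OHT, 5 of the 58 genes rose in the authors' deposited table (adjusted p below 0.05): the AP-1 genes Fos, Jun and Atf3, the survival-associated gene Ier3, and Dusp1, which encodes the MAPK phosphatase MKP-1. Over all transcripts, 3.62% passed as higher and 1.85% as lower there. None of the 58 genes fell there. At an unadjusted p under 0.05 in the authors' deposited table, 3 were lower and 15 higher. Of all 18061 transcripts, 1199 were lower and 1413 higher at that level. A limma-voom fit on the recovered reads, made over 11338 transcripts (10 or more reads in 2 libraries), could take 53 of the genes. It called 10 higher (the same 5 with Fosl2, Dusp3, Dusp22, Ier5 and Spred3) and 3 lower (Dusp2, Dusp12 and Spry1) at an adjusted p under 0.05, against 9.72% of its transcripts called higher and 5.49% called lower. Of the 53 fitted genes, 25 (47.2%) lay higher in both OHT libraries than in either EtOH library, against 27.5% of fitted transcripts, and 9 (17.0%) lay lower, against 33.9%. The median log2 fold change in the authors' deposited table was 0.51 over the 58 genes and 0.04 over all transcripts, and 40 of the 58 genes (69.0%) had a positive value, against 51.7% of transcripts.

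**Figure D1:**
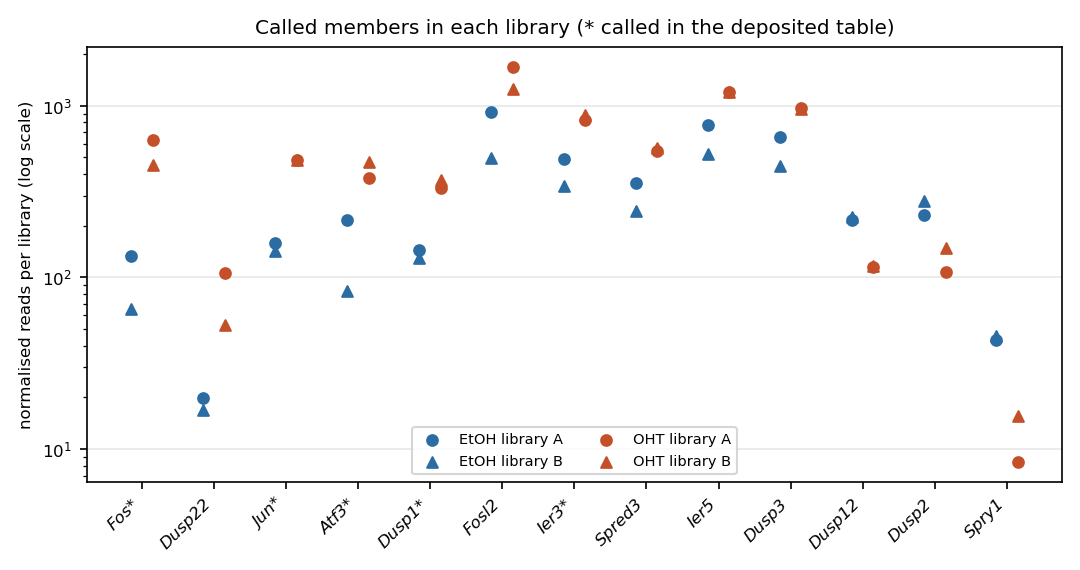
Normalised reads (log scale) of the 13 genes called by limma-voom in each of the 4 libraries, with EtOH in blue, OHT in red, circles for library A and triangles for library B; an asterisk marks the 5 genes also called in the deposited table. In each gene the EtOH and OHT points do not overlap; Fos runs from 65.1 normalised reads in EtOH B to 634 in OHT A, and Spry1 from 45.6 in EtOH B down to 8.40 in OHT A.

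The Fos family, the AP-1 subunits that bind DNA only with a partner, was led by Fos (NM_010234). Fos stood at 133 and 65.1 normalised reads with EtOH and at 634 and 449.9 with OHT. Both OHT libraries lay far above both EtOH libraries, although the EtOH libraries themselves differed by 2.04-fold. The authors' deposited table gives a 5.43-fold rise (adjusted p = 6.13e-05), and the limma-voom log2 fold change was 2.46 ± 0.35 (SE; adjusted p = 0.00342). Fosl2 (NM_008037), which encodes Fra-2 and was the most abundant family member, stood at 918 and 496 with EtOH and 1688 and 1247 with OHT. It was 2.07-fold higher in the authors' deposited table without passing its threshold (adjusted p = 0.184), and was called by limma-voom (log2 fold change 1.09 ± 0.29, adjusted p = 0.0341). That call was lost without EtOH B (0.65) and without OHT A (0.86). Fits without 1 library have 1 residual degree of freedom, so a lost call there is no measure of stability. Fosb, at 10.8 and 10.4 with EtOH and 27.7 and 14.5 with OHT, did not overlap between groups but rested on few reads (limma-voom 0.93 ± 0.57, adjusted p = 0.30). Fosl1, which encodes Fra-1, overlapped between groups, with 138 and 107 normalised reads against 124 and 147, and its limma-voom 95% interval ran from -0.54 to 0.78.

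Jun (NM_010591), the founding AP-1 subunit and a target of JNK, had replicates that nearly matched. Its levels were 159 and 143 with EtOH and 482 in both OHT libraries. This was a 3.17-fold rise in the authors' deposited table (adjusted p = 2.95e-05), and limma-voom gave 1.66 ± 0.24 (adjusted p = 0.0036). The kit did not mark strand, and exons of Jun overlap those of the antisense gene Junos, so the reads of this pair cannot be told apart. Junb (NM_008416), a weaker activator that often opposes Jun, was 852 on average with EtOH and 1129 with OHT by the authors' deposited table, which gives an adjusted p of 0.801. Its 4 libraries stood at 1020.0 and 682 against 1090.2 and 1166, so the groups did not overlap but lay close, and limma-voom did not call it (0.43 ± 0.23, adjusted p = 0.246). Atf3 (NM_007498), a stress-induced leucine zipper factor that pairs with Jun, stood at 215 and 83.3 with EtOH and 380.5 and 469 with OHT. It rose 2.84-fold in the authors' deposited table (adjusted p = 0.0256), and by 1.56 ± 0.37 in the limma-voom fit (adjusted p = 0.0215). The size of its rise rested on the EtOH libraries, at 2.32 without EtOH A and 0.97 without EtOH B, and it was called in both cases.

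The start regions of Fos, Jun and Dusp1 are shown because these were the called genes with the smallest adjusted p of the AP-1 and phosphatase families. They are the 250 bases before the RefSeq start (GRCm38.p6), at chr12:85473640-85473889 on the plus strand for Fos, chr4:95052223-95052472 on the minus strand for Jun and chr17:26508473-26508722 on the minus strand for Dusp1. Capitals mark a TATA box (TATAAA, 33 to 28 bases before the start of Fos) and a full cyclic AMP response element (TGACGTCA, 143 to 136 bases before the start of Dusp1), the site at which CREB and ATF family dimers bind.
Fos: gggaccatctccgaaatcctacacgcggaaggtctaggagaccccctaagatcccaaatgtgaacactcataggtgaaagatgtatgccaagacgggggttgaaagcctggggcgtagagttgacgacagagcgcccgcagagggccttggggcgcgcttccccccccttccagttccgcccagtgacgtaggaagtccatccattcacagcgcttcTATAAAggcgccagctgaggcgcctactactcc
Jun: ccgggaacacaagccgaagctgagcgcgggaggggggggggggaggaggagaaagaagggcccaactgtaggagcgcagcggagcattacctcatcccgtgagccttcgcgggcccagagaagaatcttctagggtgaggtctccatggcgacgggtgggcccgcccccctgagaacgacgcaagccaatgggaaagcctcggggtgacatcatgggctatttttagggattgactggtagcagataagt
Dusp1: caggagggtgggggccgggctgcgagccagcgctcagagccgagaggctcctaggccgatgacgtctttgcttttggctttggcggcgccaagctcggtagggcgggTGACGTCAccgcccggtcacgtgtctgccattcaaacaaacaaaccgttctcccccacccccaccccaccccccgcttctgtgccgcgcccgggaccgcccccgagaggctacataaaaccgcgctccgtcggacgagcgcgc
In the same window none of these 3 holds the consensus AP-1 site TGANTCA. Only exact letters were searched, so variant sites, such as tgacatca in the Jun run, were not counted. RefSeq promoters were matched for 45 of the 58 genes (53 promoters) and searched on both strands. The consensus AP-1 site was found in 3 of the 53 (5.66%), against 6.75% of all 32851 promoters. The full cyclic AMP response element was found in 2 (3.77%, Dusp1 and Dusp8; all promoters 1.55%). A CArG box, the core of the serum response element, was found in 7 promoters of 4 genes (13.2%; Dusp5, Egr2, Klf8 and Zfp36; all promoters 1.47%). The Egr site GCGNGGGCG was in 10 (18.9%; all promoters 4.70%) and the GC box GGGCGG in 37 (69.8%; all promoters 32.7%). The CACCC box, a Klf site, was in 33 (62.3%; all promoters 52.0%). The TATA box was in 2 (3.77%, Fos and Zfp36l1), against 12.4% of all promoters. These shares describe letters in a short window, and the Egr site overlaps in sequence with the GC box.

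The Egr genes encode zinc finger factors that are activated through serum response elements, and neither the 4 in the authors' deposited table nor the 3 fitted by limma-voom included a call. Egr1 (NM_007913), the most abundant, stood at 716 and 361 normalised reads with EtOH and 661 and 1061 with OHT, so the groups overlapped. Its log2 fold change was 0.68 ± 0.33 by limma-voom (adjusted p = 0.191), and the authors' deposited table gives an adjusted p of 0.963. Without EtOH A it was 1.22 and called. Egr2 (NM_010118), which acts in macrophage maturation, stood at 48.1 and 48.2 with EtOH and 89.0 and 118 with OHT and did not overlap. The authors' deposited table lists it 2.13-fold higher with an adjusted p of 0.153, and limma-voom gave 1.07 ± 0.35 (adjusted p = 0.0662). Egr3 was spread most among the fitted genes with EtOH, at 65.5 and 11.7 normalised reads against 59.6 and 53.6 with OHT. Its limma-voom value turned from 2.21, called, without EtOH A to -0.20 without EtOH B. Egr4 held 9 reads in each group and was not fitted.

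Of the Ier genes, 3 were higher in both OHT libraries and Ier2 was lower in both, against 27.5% and 33.9% of fitted transcripts. Ier3 (NM_133662), also called IEX-1, whose product prolongs ERK signalling and affects cell survival, stood at 488 and 342 with EtOH and 829 and 885 with OHT. It rose 2.06-fold in the authors' deposited table (adjusted p = 0.0195) and by 1.04 ± 0.23 in limma-voom (adjusted p = 0.0169). Ier5 (NM_010500), a cofactor of heat shock factor 1, stood at 775 and 525 with EtOH and at 1198 and 1200.1 with OHT. Just outside the threshold of the authors' deposited table (1.84-fold, adjusted p = 0.0642), it was called by limma-voom (0.90 ± 0.23, adjusted p = 0.0287). The call was lost without EtOH B (log2 fold change 0.63), OHT A (0.90) or OHT B (0.89). Ier5l, a paralogue of Ier5, was 34.0 and 41.7 against 76.4 and 65.9 and missed both thresholds (limma-voom 0.93 ± 0.37, adjusted p = 0.117). Ier2 (NM_010499), a nuclear immediate early protein, stood at 1059 and 1369.8 with EtOH and 767 and 923 with OHT. It was 1.44-fold lower in the authors' deposited table (adjusted p = 0.440), with a limma-voom value of -0.52 ± 0.22 (adjusted p = 0.140), and was called lower (-0.70) only when EtOH A was left out. Per kilobase of transcript Ier2 was the highest of the 58 genes with EtOH (798 normalised reads per kilobase), and Ier3 the highest with OHT (758).

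Of the 10 Dusp genes that encode classical MAPK phosphatases, 1 was called higher and none lower in the authors' deposited table, against 3.62% and 1.85% of all transcripts. Their log2 fold change was above 0 in 9, against 51.7% of transcripts, and its median was 0.44, against 0.04. Dusp1 (NM_013642), whose nuclear product acts on p38 and JNK before ERK, stood at 144 and 130.2 with EtOH and 333 and 371 with OHT, 2 tight pairs. The rise was 2.55-fold in the authors' deposited table (adjusted p = 0.00253) and 1.34 ± 0.25 in limma-voom (adjusted p = 0.00902). Dusp2 (NM_010090), a nuclear phosphatase of blood cells also called PAC-1, went the other way, at 231 and 279 with EtOH and 108 and 148 with OHT. It was 1.98-fold lower in the authors' deposited table (adjusted p = 0.0628) and called lower by limma-voom (-1.01 ± 0.28, adjusted p = 0.0407). The call was kept without EtOH A (-1.16) and lost without EtOH B (-0.89), OHT A (-0.76) or OHT B (-1.22).

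The ERK-selective phosphatase Dusp6 (NM_026268), the most abundant of these 10 genes in reads, stood at 1144 and 594 with EtOH and 1269 and 1488 with OHT. It did not overlap, but its EtOH libraries differed by 1.93-fold and neither test called it (1.59-fold, adjusted p = 0.650 in the authors' deposited table; limma-voom 0.72 ± 0.29, adjusted p = 0.118). Dusp7 (NM_153459), a cytoplasmic relative of Dusp6, was 493 and 414 against 611 and 535 (limma-voom 0.33 ± 0.22, adjusted p = 0.332). The nuclear phosphatase Dusp4 was 78.0 and 56.0 against 114 and 174 (limma-voom 1.03 ± 0.36, adjusted p = 0.0767), and the sparse Dusp8 was 4.98 and 2.60 against 13.4 and 25.7 (2.10 ± 0.70, adjusted p = 0.0686). Neither pair of groups overlapped. The other 4, Dusp5, Dusp9, Dusp10 and Dusp16, overlapped between groups, with limma-voom values from -0.02 to 0.60.

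The 11 other Dusp genes encode small atypical phosphatases, several of which act on RNA or on other proteins than MAPKs, and none was called in the authors' deposited table. Dusp3 (NM_028207), or VHR, which acts on ERK and JNK, stood at 657 and 447 with EtOH and 976 and 955 with OHT. It was 1.75-fold higher in the authors' deposited table (adjusted p = 0.118) and called by limma-voom (0.82 ± 0.23, adjusted p = 0.0418). The call was lost without EtOH B (log2 fold change 0.55), OHT A (0.80) or OHT B (0.83). Dusp22 (NM_001037955), a regulator of JNK signalling, stood at 19.9 and 16.9 against 106 and 52.5. The authors' deposited table gives 4.11-fold (adjusted p = 0.151) and limma-voom 2.01 ± 0.50 (adjusted p = 0.0258), with the call lost without OHT A (1.47).

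Dusp12 (NM_023173), a zinc-binding phosphatase, was lower with OHT, at 215 and 224 with EtOH and 114 and 117 with OHT. The 2 pairs were tight, and the gene was 1.89-fold lower in the authors' deposited table (adjusted p = 0.115) and -0.92 ± 0.27 in limma-voom (adjusted p = 0.0447). That call was lost without EtOH B (-0.89), OHT A (-0.90) or OHT B (-0.94). Dusp11 (NM_028099), an RNA triphosphatase and the most abundant of the 11, overlapped between groups at 1974 and 1586 against 1492 and 1682 (limma-voom -0.16 ± 0.21, adjusted p = 0.645). Dusp14 was 27.4 and 16.9 against 37.0 and 72.6. Dusp19, Dusp23 and Dusp28 were lower in both OHT libraries, as were 33.9% of fitted transcripts. None of these 4 was called. Dusp13 and Dusp15 were near 0, with 5 and 1 reads in the EtOH group and 35 and 7 in the OHT group. Exons of 14 of the 58 genes overlap other annotated genes, and reads of such pairs may be shared: here Dusp3, Dusp11, Dusp12, Dusp13, Dusp19 and Dusp28, and among genes called by limma-voom also Jun and Spry1.

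Sprouty and Spred genes encode inhibitors of receptor tyrosine kinase signalling through Ras, and their members did not move together. Spry1 (NM_011896) stood at 43.1 and 45.6 normalised reads with EtOH and 8.40 and 15.6 with OHT. It was 3.5-fold lower and just outside the threshold in the authors' deposited table (adjusted p = 0.0582). Limma-voom called it lower (-1.94 ± 0.50, adjusted p = 0.0288), but not without OHT A (-1.47) or OHT B (-2.34). Spry2 (NM_011897), the most abundant Sprouty gene here, overlapped at 301 and 217 against 165 and 247 (limma-voom -0.39 ± 0.29, adjusted p = 0.404). Spry4 (NM_011898) was 46.4 and 18.2 with EtOH but 37.8 and 151 with OHT, so 1 OHT library carried its mean. The authors' deposited table lists it 2.85-fold higher with an adjusted p of 0.993, and limma-voom gave 2.26, called, without OHT A and 0.27 without OHT B.

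Spred3 (NM_182927) stood at 352 and 245 with EtOH and 548 and 570.5 with OHT, with no overlap. It was 1.87-fold higher in the authors' deposited table (adjusted p = 0.0814) and called by limma-voom (0.90 ± 0.24, adjusted p = 0.0341). The call was lost without EtOH B (0.66), OHT A (0.94) or OHT B (0.87). Spred1 (NM_033524), which brings the Ras inactivator neurofibromin to the membrane, was 714 and 518 against 469 and 691, and Spred2 was 537 and 375 against 297 and 412. Both overlapped between groups, with limma-voom values of -0.12 ± 0.26 and -0.39 ± 0.26, and the sign of Spred1 depended on the libraries used.

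**Figure D2:**
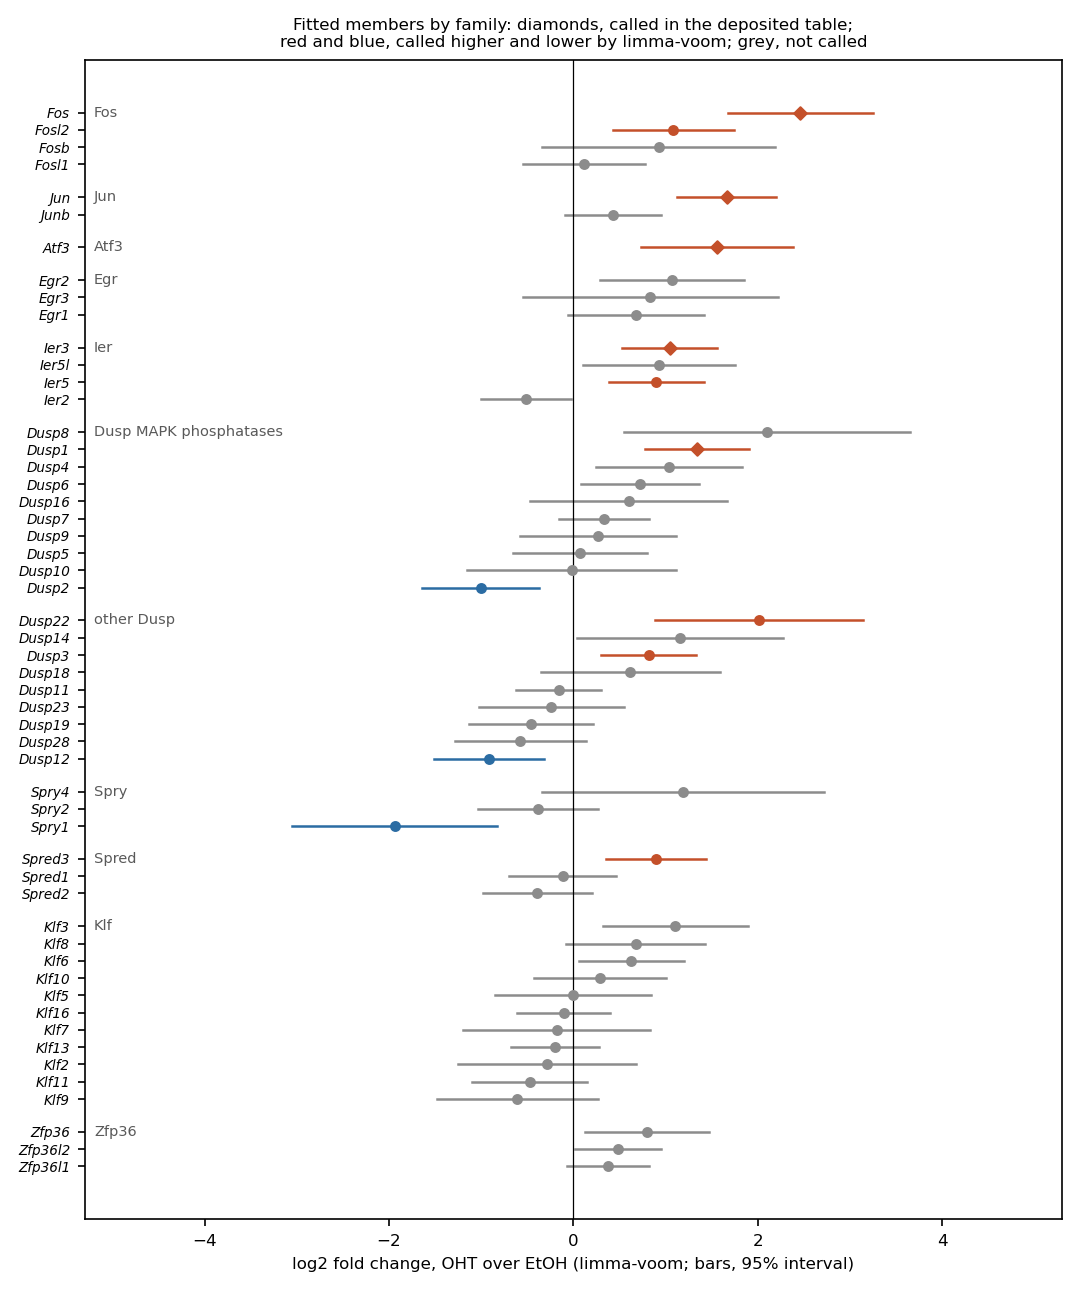
Log2 fold change of OHT over EtOH by limma-voom for the 53 fitted genes, grouped by family, with 95% intervals as bars; diamonds are called in the deposited table, red and blue points are called higher and lower by limma-voom, and grey points are not called. Fos, Jun and Atf3 lie from 1.56 to 2.46, the Klf genes lie on both sides of 0 with none called, and Dusp and Sprouty genes are found on both sides.

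None of the 13 Klf genes, which encode zinc finger factors for GC-rich and CACCC sites, was called in the authors' deposited table, and none of the 11 fitted by limma-voom. Their median log2 fold change in that table was 0.04, as was that of all transcripts. Klf6 (NM_011803), abundant in myeloid cells, stood at 1361 and 852 with EtOH and 1492 and 1873 with OHT. The groups did not overlap, but limma-voom did not call it (0.63 ± 0.26, adjusted p = 0.123; without EtOH A 0.98, called). Klf13 (NM_021366) overlapped at 1391 and 1074 against 1136 and 994, with -0.20 ± 0.21 (adjusted p = 0.563). Klf3, a repressor that works with CtBP, was 176 and 84.6 against 320.0 and 232 and came nearest to a call (limma-voom 1.11 ± 0.35, adjusted p = 0.0611). Klf2, a factor of quiescent lymphocytes and monocytes, was 244 and 711 with EtOH and 406 and 258 with OHT. The EtOH libraries of Klf2 differed by 2.92-fold, and its limma-voom value ran from -1.11 without EtOH A to 0.43 without EtOH B. Klf9, at 365 and 190.1 against 129 and 261, Klf10, at 520.0 and 246 against 494 and 411, and Klf5, Klf7, Klf8, Klf11 and Klf16 had limma-voom values from -0.61 to 0.68. Klf8 was higher, and Klf11 and Klf16 lower, in both OHT libraries, as were 27.5% and 33.9% of fitted transcripts. Klf15 and Klf17, not fitted, were close to 0, with 2 and 0 reads in the EtOH group and 4 and 3 in the OHT group. The count of 0 calls does not cover Klf4, which the rule leaves out: it stood at 10.8 and 11.7 with EtOH and 64.7 and 54.7 with OHT, and rose in the authors' deposited table (adjusted p = 0.00359).

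Zfp36, also called tristetraprolin, and its paralogues bind AU-rich sequences in mRNA and recruit the deadenylation machinery. All 3 were higher in both OHT libraries than in either EtOH library, as were 27.5% of fitted transcripts, and none was called. Zfp36l2 (NM_001001806), the most abundant, stood at 1618 and 1272 with EtOH and 1879.6 and 2150.2 with OHT (limma-voom 0.48 ± 0.21, adjusted p = 0.149). Zfp36l1 (NM_007564) stood at 933 and 815 against 1161 and 1106 (0.38 ± 0.20, adjusted p = 0.231). Zfp36 (NM_011756) was 829 and 402 against 1045 and 1004 (0.80 ± 0.30, adjusted p = 0.101), and was called without EtOH A.

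Short stretches of the 5 genes that rose are shown because AU-rich sequences are what Zfp36 proteins bind. Each run is 29 bases of the 3′ untranslated region, from GENCODE M21 transcripts on GRCm38, written as DNA. Capitals mark the first nonamer TTATTTATT where the region holds one and otherwise the first pentamer ATTTA. Further copies are in lower case. Of the 5 genes, only Fos and Dusp1 hold the nonamer, and binding of Zfp36 proteins was not tested.
Fos (chr12:85477103-85477131, plus strand): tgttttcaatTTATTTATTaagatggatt
Jun (chr4:95049550-95049578, minus strand): tccagaaaggatATTTAagaaaatacaat
Atf3 (chr1:191171242-191171270, minus strand): accaattccaggATTTAggccttatcatc
Ier3 (chr17:35822481-35822509, plus strand): tgtctaattaatATTTAtgtatttatgta
Dusp1 (chr17:26506159-26506187, minus strand): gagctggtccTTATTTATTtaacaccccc
The nonamer was present in 11 of the 58 genes (19.0%), among them Fos, Fosl2, Dusp1 and all 3 Zfp36 genes, against 7.03% of 10747 matched fitted transcripts. The pentamer was present in 52 (89.7%), against 65.6%. The genes had a median of 3.5 exons against 9 and a median 3′ untranslated region of 1243.5 bases against 956, while the median transcript lengths were close (2908.5 and 2872 bases). A longer region holds more pentamers by length alone.

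Within groups, most of these genes deviated in the same direction. In EtOH A 42 of the 53 fitted genes (79.2%) stood higher than in EtOH B, against 57.8% of fitted transcripts, and 20 (37.7%) stood more than 1.5-fold higher, against 21.2%. In EtOH B 1 gene (1.89%), Klf2, stood more than 1.5-fold higher, against 9.13%. With OHT, library B was the higher one for 35 genes (66.0%; all fitted transcripts 54.3%), and 9 (17.0%, against 7.58%) stood more than 1.5-fold higher there. The macrophage markers summed to 3325 in EtOH A and 1285 in EtOH B, the same direction. Of the 9 fitted, 7 stood more than 1.5-fold higher in A and 2 more than 1.5-fold higher in B. Heat shock genes summed to 15259 in EtOH A and 19724 in EtOH B, the opposite direction. Of the 11 fitted, 7 were higher in EtOH B and 4 in EtOH A. With OHT both lists summed higher in B, as most of the 53 genes stood. There 6 of the 9 fitted macrophage markers and 10 of the 11 fitted heat shock genes were higher in B. The sums in OHT A and B were 6232 and 6899 for macrophage markers and 13080 and 17277 for heat shock genes. The part of either list in this spread was not tested.

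**Figure D3:**
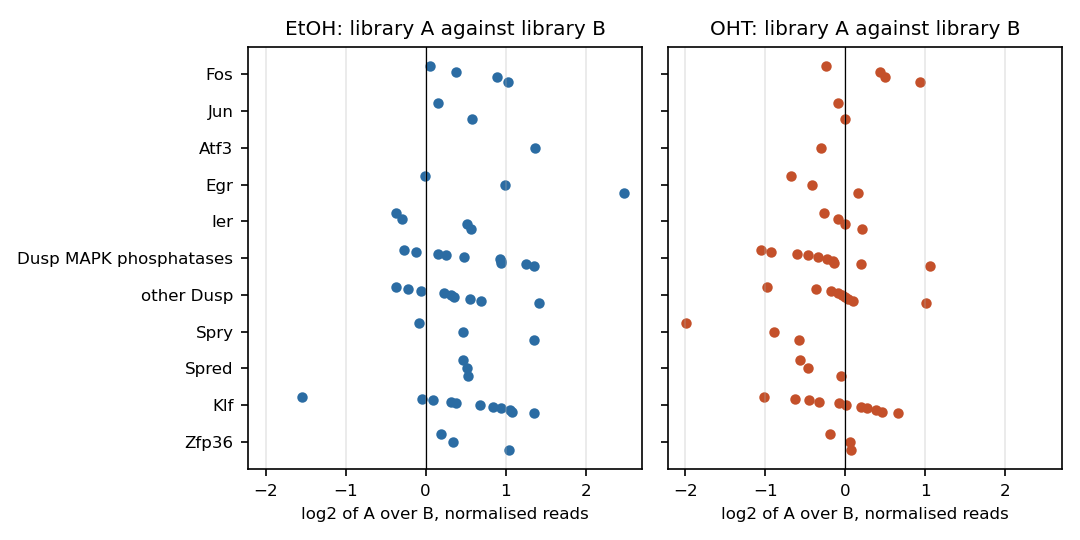
Log2 ratio of library A over library B in normalised reads for each fitted gene, by family, with EtOH in the left panel and OHT in the right. With EtOH 42 of 53 points lie right of 0, Klf2 lies far to the left and Egr3 far to the right; with OHT 35 points lie left of 0.

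Because of that spread, the fit was repeated without each library in turn. Each such fit has 1 residual degree of freedom, from the group that keeps both libraries, and assumes that the lone library varies like them, so its p-values are no measure of stability. Fos, Jun, Atf3, Dusp1 and Ier3 were called higher in all 4 of these fits, and the adjusted p of Fos was smaller without OHT B (1.5e-07) than with all 4 libraries. Fos ranged from 2.01 to 3.03, Jun from 1.60 to 1.75, Dusp1 from 1.27 to 1.42 and Ier3 from 0.81 to 1.32. The fit without EtOH A called the most of these genes higher and the most lower. It also called the most transcripts higher and lower over the whole series. The 9 genes called higher without EtOH A but not with all 4 libraries were Egr1, Egr3, Zfp36, Klf3, Klf6, Klf10, Dusp6, Dusp18 and Junb; Ier2 and Klf2 were the 2 further genes called lower. The median of the 53 genes was 0.77 without EtOH A and 0.23 without EtOH B.

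**Figure D4:**
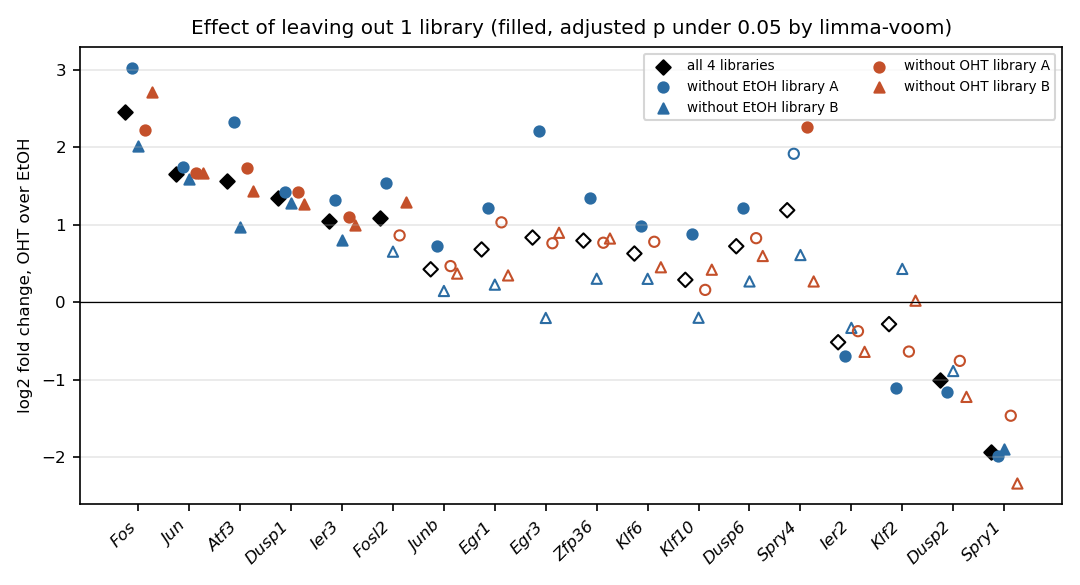
Log2 fold change of OHT over EtOH by limma-voom with all 4 libraries (diamonds) and without each library in turn (coloured points), filled where the adjusted p is under 0.05. Fos, Jun, Atf3, Dusp1 and Ier3 are filled in every fit, while Egr1, Egr3, Zfp36, Klf6, Klf10, Dusp6 and Junb are filled only without EtOH A and Spry4 only without OHT A.

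Of 62 listed genes of the ERK, JNK and p38 pathways, 57 were measured. The authors' deposited table has 3 of them higher and 0 lower, a number to read against 3.62% and 1.85% of all transcripts, and the median log2 fold change was 0.09 against 0.04. Mapk11, which encodes a p38 kinase, stood at 36.5 and 35.2 with EtOH and 392 and 282 with OHT, 9.17-fold higher in the authors' deposited table (adjusted p = 6.53e-09). The Ras-related GTPase genes Rras (2.39-fold, adjusted p = 0.0193) and Mras (4.83-fold, adjusted p = 0.0406) were the others in the authors' deposited table. Their limma-voom values were 1.25 and 2.35 with all libraries and 1.17 and 2.30 without OHT A, where both calls were lost. Mapk3, which encodes the kinase ERK1, stood at 1139 and 1197 against 1162 and 1295 and was not called. Limma-voom called 7 of the 55 fitted genes of the list higher and 2 lower (Sos2 and Map2k5), beside 9.72% and 5.49% of fitted transcripts.

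Among 53 measured genes of 59 listed as other immediate early or ERK output genes, 6 were called higher and 1 lower by the authors' deposited table, where 3.62% and 1.85% of all transcripts were. The median log2 fold change was 0.81 against 0.04 over all transcripts. Plk2, a polo-like kinase gene, stood at 177 and 28.6 with EtOH and 661 and 637 with OHT; the authors' deposited table gives a 6.24-fold rise (adjusted p = 3.76e-11). By limma-voom the log2 fold change was 4.47 without EtOH A and 1.87 without EtOH B, called in both. Socs3, an inhibitor of cytokine receptor signalling, rose 4.03-fold (adjusted p = 8.92e-08), and Trib1, a pseudokinase that directs C/EBP alpha to degradation, 2.32-fold (adjusted p = 0.00841), in the authors' deposited table. Ppp1r15a, which encodes the stress-induced eIF2 alpha phosphatase subunit GADD34, fell from 800.2 and 819 to 302 and 478, 2.07-fold in the authors' deposited table (adjusted p = 0.00661). The other genes that rose were Il1b, Nfkbia and Gadd45b, by 2.03- to 4.24-fold in the authors' deposited table. Without OHT A limma-voom no longer called Trib1 (1.18 against 1.21 with all libraries), Ppp1r15a (-0.76 against -1.11), Nfkbia (0.98 against 1.02) or Gadd45b (0.80 against 1.03). Gadd45b was not called without EtOH A either (0.998).

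Of 33 listed leucine zipper partners of AP-1, SRF cofactors and Sp factors, 30 were measured and 3 rose by the authors' deposited table, with none lower and a median of -0.12 (all transcripts 3.62%, 1.85% and 0.04). Among them were Maf, a factor of macrophages (26.5 and 3.91 against 175 and 118), and Batf3, a factor of dendritic cells (0.829 and 5.21 against 37.8 and 34.6). The authors' deposited table gives 9.06-fold for Maf (adjusted p = 6.13e-05) and 9.10-fold for Batf3 (adjusted p = 0.00193). The limma-voom value of Maf was 5.01 without EtOH A and 2.45 without EtOH B, and that of Batf3 was 2.65 and 4.89, all called.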

How the data were processed

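RNA of 4 samples was sequenced from TruSeq version 2 libraries, which do not mark strand, per the labels. TopHat, DESeq and mm9 are named in the submitters' processing notes; the counting tool is not given in the sources used here. The deposited table holds, per RefSeq transcript, a group mean signal made by the authors (reads over size factors, with 1 read added per library, as the values show), their fold ratio of OHT over EtOH, its log2, and a p-value with its adjusted form. The adjusted p-value in the authors' deposited table matched a Benjamini-Hochberg adjustment over all 18061 rows within 2.63e-06. No column of counts per sample was used, so the planned count test gave way to the authors' adjusted p, with a threshold of 0.05.

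Each deposited group mean was solved for the whole reads of its 2 libraries; size factors were 1.21 and 0.768 (EtOH A and B) and 1.19 and 0.896 (OHT A and B). These reads were fitted with limma-voom (limma 3.58.1, R 4.3.3; at least 10 reads in 2 libraries, 2 residual degrees of freedom), with p-values adjusted over all 11338 fitted transcripts. The solver and the fit were tested on simulated data. Alternatives were other thresholds, every transcript, TMM factors, library totals, no filter, and each library left out. Members and lists were chosen with earlier results of these data known. Genes given full statistics were those called by either test and the 2 most abundant per family. Those with an adjusted p from 0.05 to 0.2 were given by value. Of each list, full statistics went to up to 4 called genes with the smallest adjusted p. Some genes of the lists are counted but not reported here by name. Promoters are from RefSeq (GRCm38.p6) and transcripts from GENCODE M21 (GRCm38), of another build than the table, so no coordinates of the table were used.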

Additional observations from a re-analysis of the deposited data

How the results depend on the processing

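No paired analysis was possible because the recovered libraries carry no replicate numbers. The count of genes called higher, 5 in the deposited table, was 3 at an adjusted p under 0.01, 10 by limma-voom with the solved size factors, with TMM factors and with library totals, and 15 with no filter on low counts; without 1 library it ran from 6 (without EtOH B or OHT A) to 19 (without EtOH A). The count called lower, 0 in the deposited table, was 2 at an adjusted p under 0.1, 3 by limma-voom, 3 with TMM factors, 1 with library totals and 3 with no filter, and ran from 0 (without either OHT library) to 5 (without EtOH A). The median log2 fold change of the genes ran from 0.23 without EtOH B to 0.77 without EtOH A. Of the ERK and MAPK pathway list, 9 genes were called by limma-voom, with TMM factors and with library totals alike, 10 with no filter, and 3 (without OHT A) to 12 (without EtOH A) when 1 library was left out. Of the other immediate early list, limma-voom called 14 genes, 16 with TMM factors, 15 with library totals, 19 with no filter, and 8 (without OHT A) to 22 (without EtOH A) when 1 library was left out. The AP-1 partner list gave 3 to 7 calls when 1 library was left out, with 7 without EtOH A. Dusp11 ran from -0.31 to 0.0018, positive without EtOH A. Spred1 ran from -0.39 to 0.17, positive without OHT A and without EtOH A (0.13). Over the 27 genes given full statistics, 108 values without 1 library held 3 reversals. Their 108 values with all libraries held 31 further calls and 0 reversals. These 27 were picked as called or most abundant, and other genes did change sign. Dusp10 and Klf5 were 0.06 and 0.04 in the deposited table and -0.02 and -0.0033 by limma-voom. Egr3 turned to -0.20 and Klf2 to 0.43 without EtOH B. Of the fits without 1 library, the one without EtOH A also called the most transcripts higher and lower over the whole series. The cause of the changes between fits was not tested. With 2 libraries a group, no value could be checked for a sample that stands apart.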

Other observations

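Of 30 listed receptors that signal to ERK, 26 were measured and 7 rose in the authors' deposited table, where 3.62% of all transcripts rose. The other 19 were not called, 5 of the 26 had a negative value, and the median log2 fold change was 1.04 against 0.04 over all transcripts. Limma-voom fitted 16 and called 9 higher and 0 lower, against 9.72% and 5.49% of fitted transcripts. The groups overlapped for 6 of the 16, and for 4374 of all 11338 fitted transcripts. Met, the receptor of hepatocyte growth factor, stood at 69.7 and 41.7 normalised reads with EtOH and 364 and 377 with OHT, 6.55-fold higher in the authors' deposited table (adjusted p = 1.1e-10). Flt1, a VEGF receptor, stood at 170.0 and 177 against 527 and 505 (2.96-fold, adjusted p = 5.96e-05 in the authors' deposited table). Mertk, a receptor for the uptake of dead cells by macrophages, stood at 5.80 and 0 against 63.0 and 40.2, and its limma-voom value ran from 3.06 without EtOH B to 6.31 without EtOH A, called in both. Flt4, another VEGF receptor, stood at 2.49 and 2.60 against 49.6 and 32.4 (11.6-fold, adjusted p = 0.000466 in the authors' deposited table). The macrophage markers, which were higher in both OHT libraries, moved with this list, and their part in it was not tested.

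Of 12 heat shock genes, 1 was called higher and 0 lower by the authors' adjusted p, where 3.62% and 1.85% of all transcripts were. Their deposited log2 fold change was negative in 7 and positive in 5, with a median of -0.09 against 0.04. The called gene was Hspb1, a small heat shock protein gene. It stood at 0 and 2.60 normalised reads with EtOH and 52.9 and 92.7 with OHT (adjusted p = 8.63e-05 in the authors' deposited table). Hspb1 rested on few reads with EtOH. Its limma-voom log2 fold change was 5.89 with all libraries, 4.40 without EtOH A and 7.37 without EtOH B.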
